A study of Mus musculus with 25 samples.

Results

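The nuclear subunit genes of respiratory complex I were examined in gastrocnemius, a calf muscle, of 25 male SAMP8 mice. SAMP8 is an inbred mouse line with accelerated senescence. All mice were SAMP8, and 11 received vehicle, which was corn oil (control), and 14 received thymol, a phenol of thyme and oregano. Both were given by oral gavage, thymol at 20 mg for each kg of body weight on a dosing day. Dosing was not on every day of the week. Treatment began at an age of 8 months and lasted 3 months. Each mouse gave 1 library of 3′ mRNA sequencing, in which a transcript yields reads from its 3′ end only, and the deposited table held 8829 genes as log2 CPM (log2 of counts scaled to a common library size). Genes were chosen by symbol, as those named Ndufa, Ndufb, Ndufc, Ndufs or Ndufv with a number, and Ndufab1. The rule used no measured value and found 40 genes of 8829.

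Of these 40 genes, 37 encode subunits of complex I and 3 do not. Ndufa4 is now placed in complex IV, Ndufa4l2 is its paralog, known as a gene induced by low oxygen, and Ndufs6b is annotated as a processed pseudogene in GENCODE M21. Ndufb1 is listed in GENCODE M21 as Ndufb1-ps, a bidirectional promoter lncRNA, and in RefSeq as protein-coding Ndufb1, and was counted with the subunits. On that reading the label held for all but 3 of the members. The 37 subunits were split by their place in the complex into 10 genes of the N-module, 6 of the Q-module, 9 of the proximal membrane arm, 11 of the distal membrane arm and Ndufab1, the acyl carrier protein.

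Complex I passes electrons from NADH to ubiquinone and moves protons across the inner mitochondrial membrane. NADH is oxidized in the N-module at the tip of the matrix arm, electrons run along iron-sulfur clusters to the Q-module, where ubiquinone is reduced, and the membrane arm carries the proton pumps. The pumps themselves and some further core subunits are encoded by mitochondrial DNA. The remaining core subunits and the accessory subunits are encoded by nuclear genes, so that the complex draws on both genomes. Accessory subunits stabilize the arms, and assembly factors leave the finished enzyme. Skeletal muscle is rich in mitochondria, more so in oxidative than in glycolytic fibres.

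The tissue was checked against its markers. All 11 skeletal muscle markers were in the table, and their summed level was 136939 to 180152 CPM in control and 140124 to 174891 CPM in thymol mice. Reads on the 8829 genes ranged from 4463818 to 9463418 per mouse. A pair of libraries stood apart in the genes studied here. In Control 14, named by its group and the last number of its label, all 40 genes were above their median over the 25 mice, and in Control 19 it was 0 of 40. Over all genes of the table, 46.7% were above their median in Control 14 and 48.8% in Control 19. Most correlations over mice, and the counts from co-variation, are given with and without them.

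Start-site sequence was read for the subunit genes, and its relation to how their levels varied across mice was not tested. RefSeq promoters of GRCm38.p6, from 250 bases before to 50 bases after the annotated start, were held for 33 of the 37 subunits. The word AGATGGC, the core of the YY1 motif, was found on either strand in 8 of 33 (24.2%) subunit promoters and in 7.83% of the 7049 promoters of genes in the table. The word for ERR factors, AAGGTCA, was in 3 (9.09%) against 2.77%, that for NRF1, GCATGCG, in 3 (9.09%) against 7.33%, that for ETS factors, CCGGAAG, in 4 (12.1%) against 19.7%, and the GC box GGGCGG in 15 (45.5%) against 67.4%. Both strands were searched, none of these words contains another, and a match is a string of letters, not a measured binding site. In 7 of the 33 (21.2%) subunit promoters AGATGGC began 20 to 45 bases after the start on the gene's own strand, against 141 of 7049 (2%) table genes, a window chosen after the positions had been seen. The word holds an ATG. The 7 stretches are shown, 5′ to 3′ on the gene's strand, with the word in capitals.
Ndufs4, N-module, chr13:114388045-114388068, minus strand: gcctacaggaAGATGGCggcggtc
Ndufs6, N-module, chr13:73328433-73328458, minus strand: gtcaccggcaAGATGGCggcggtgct
Ndufs7, Q-module, chr10:80249464-80249490, plus strand: gccgaggccaAGATGGCggcgctggcg
Ndufa9, Q-module, chr6:126849098-126849124, minus strand: ttgtgggagaAGATGGCggccgccgtc
Ndufa3, proximal membrane arm, chr7:3617386-3617412, plus strand: gccaagaacaAGATGGCcgggagtaag
Ndufc1, proximal membrane arm, chr3:51408916-51408942, minus strand: ctgcggaacaAGATGGCgccgtccgta
Ndufb8, distal membrane arm, chr19:44555393-44555413, minus strand: gagaaggtgaAGATGGCtgcc
The 7 genes came from all 4 structural parts of the complex.

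The 40 genes spanned a wide range of levels. Because the reads came from 3′ ends, the level of a gene did not grow with its transcript length, and levels were compared between genes without a length correction. The highest mean levels were those of Ndufa5, an accessory subunit of the Q-module, at 9.40 log2 CPM, Ndufb9, which holds an acyl carrier protein in the distal arm, at 9.15, and Ndufb5, a distal arm subunit, at 8.94. Of the 40 genes, 37 lay above the median gene of the table, which was at 4.09 log2 CPM, and together they took 0.758% to 1.06% of the reads of a mouse. The lowest were Ndufa4l2 at 2.67, Ndufs5, an intermembrane space subunit of the proximal arm, at 2.92, and Ndufs6b at 4.07. Among the 37 subunits the highest level was 89.4 times the lowest on the CPM scale, and 19.7 times without Ndufs5.

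**Figure D1:**
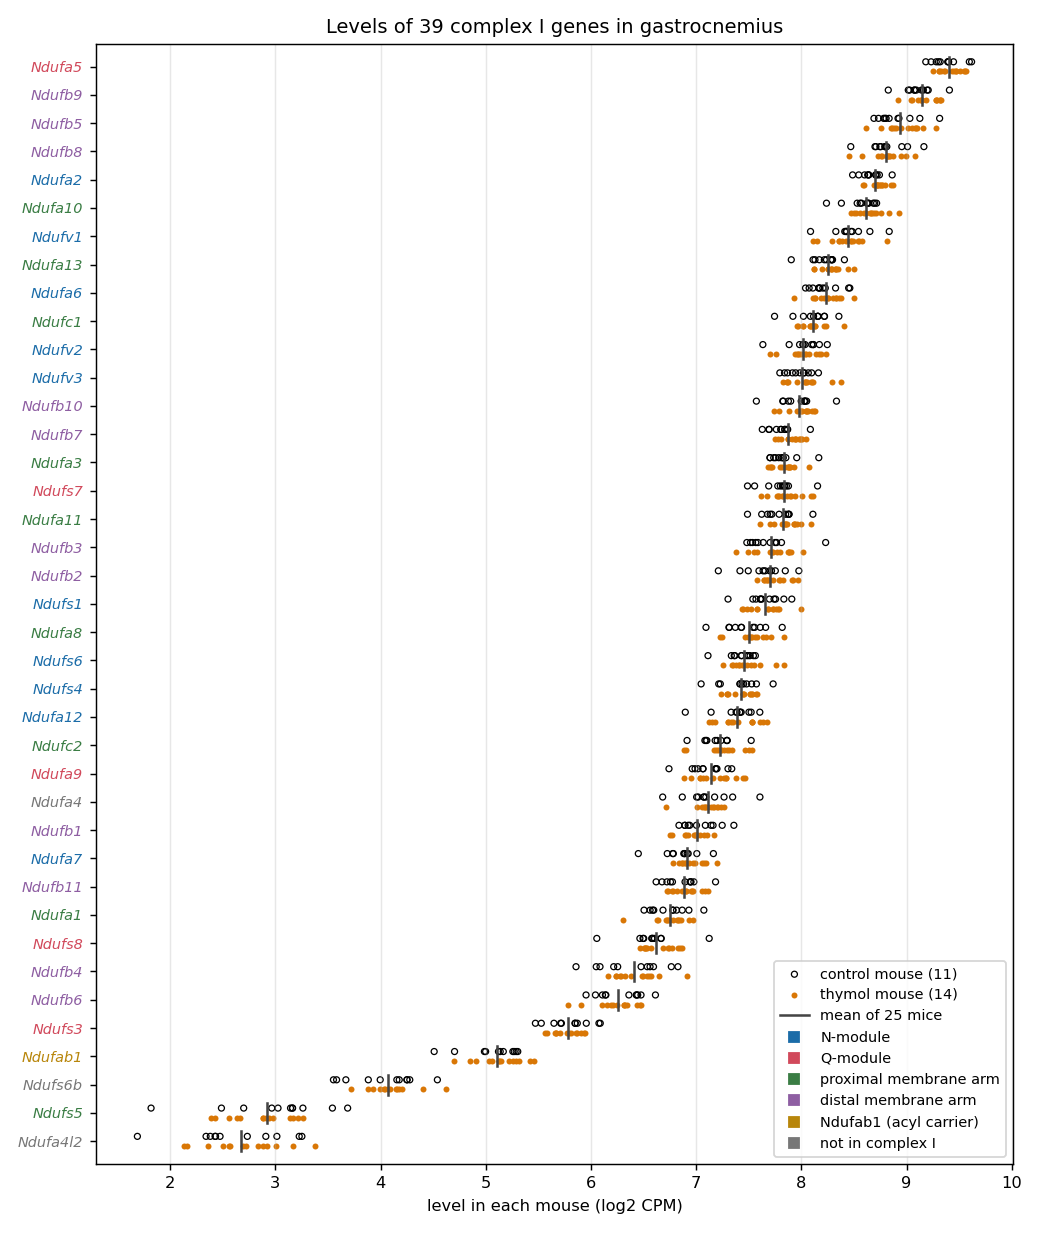
Level of 39 of the 40 genes (log2 CPM, horizontal axis) in 11 control mice (open circles) and 14 thymol mice (filled circles), ordered by the mean of 25 mice (vertical line), with gene names coloured by structural part. Levels run from 9.40 for Ndufa5 to 2.67 for Ndufa4l2, and the groups overlap in every gene.

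The core subunits, most of which carry redox groups, did not lie at 1 level. Ndufv1, which binds NADH and the flavin, was at 8.44 log2 CPM, Ndufv2, an iron-sulfur protein of the N-module, at 8.02 and Ndufs7, whose cluster hands electrons to ubiquinone, at 7.83. Ndufs1, the largest core subunit of the N-module, was at 7.65, Ndufs8, an iron-sulfur protein of the Q-module, at 6.62 and Ndufs3, a core subunit without a cluster, at 5.78. Ndufb8, a distal arm subunit used as a blot marker of complex I, was at 8.81, and Ndufab1, which also serves mitochondrial fatty acid synthesis, was at 5.11. Of the 39 steps between neighbours in the order of mean levels, 7 were larger than the larger of the 2 genes' between-mouse SDs. Whether neighbours differed within mice was not tested. The order as a whole was shared by the mice, with a rank correlation of at least 0.954 between any pair of mice over the 40 genes, which share library and gene-specific read yield and are not independent replicates.

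For the low values the share of the transcript that reads can place matters. Of the 31-base words in the last 300 bases of annotated transcripts, 54.5% of those of Ndufs5 were shared with other genes (BC002163), and Ndufs5 had 18 to 91 reads per mouse. The share was 65.99% for Ndufb6, a distal arm subunit that overlaps Smim27 on the other strand, 53.3% for Ndufs6b with Ndufs6, and 34.9% for Ndufs3 with Gm12251 and Gm11927. For Ndufab1 it was 30.1%, with 1225 other genes, Ndufab1-ps among them, and for Ndufb11, a distal arm subunit, 32.96% with Gm6444. How reads on such words were counted is not given in the sources used here, nor is the strand setting, so the levels of these genes are uncertain.

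Spread between mice was small for most of the genes. The SD within groups had a median of 0.16 log2 units over the 40 genes, against 0.28 over all genes. For genes with a mean above 6 log2 CPM it was 0.16 for the 35 members and 0.16 for all 1431 such genes. The tightest were Ndufa2, an N-module subunit, at 0.09, Ndufb7, a distal arm subunit facing the intermembrane space, at 0.10, and Ndufa13, a proximal arm subunit also known as GRIM-19, at 0.12. The widest were Ndufa4l2 at 0.41, Ndufs5 at 0.40 and Ndufs6b at 0.27. Counting error alone would give 0.21 for Ndufa4l2, 0.19 for Ndufs5 and 0.13 for Ndufs6b at their mean reads, and 0.03 for Ndufa2.

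The comparison of thymol with control asked whether 3 months of thymol went with another level of complex I transcripts. With limma, two-sided p-values adjusted over the 8829 genes by Benjamini-Hochberg and a threshold of 0.05, 0 of the 40 genes were called, as were 0% of all genes, and voom on recovered reads also called 0 of 40. At an unadjusted p under 0.05 it was 1 of 40, against 312 of 8829 genes (3.53%). The groups were free of overlap in 0 of 40 genes and in 0% of all genes. The estimate was above 0 in 32 of the 40 genes, against 49.6% of all genes, and the median log2 fold change was 0.05, against -0.0014 over all genes. The genes were correlated across mice, so the 40 signs are not separate observations. In a bulk muscle sample, fewer cells of a type and less RNA per cell cannot be told apart.

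**Figure D2:**
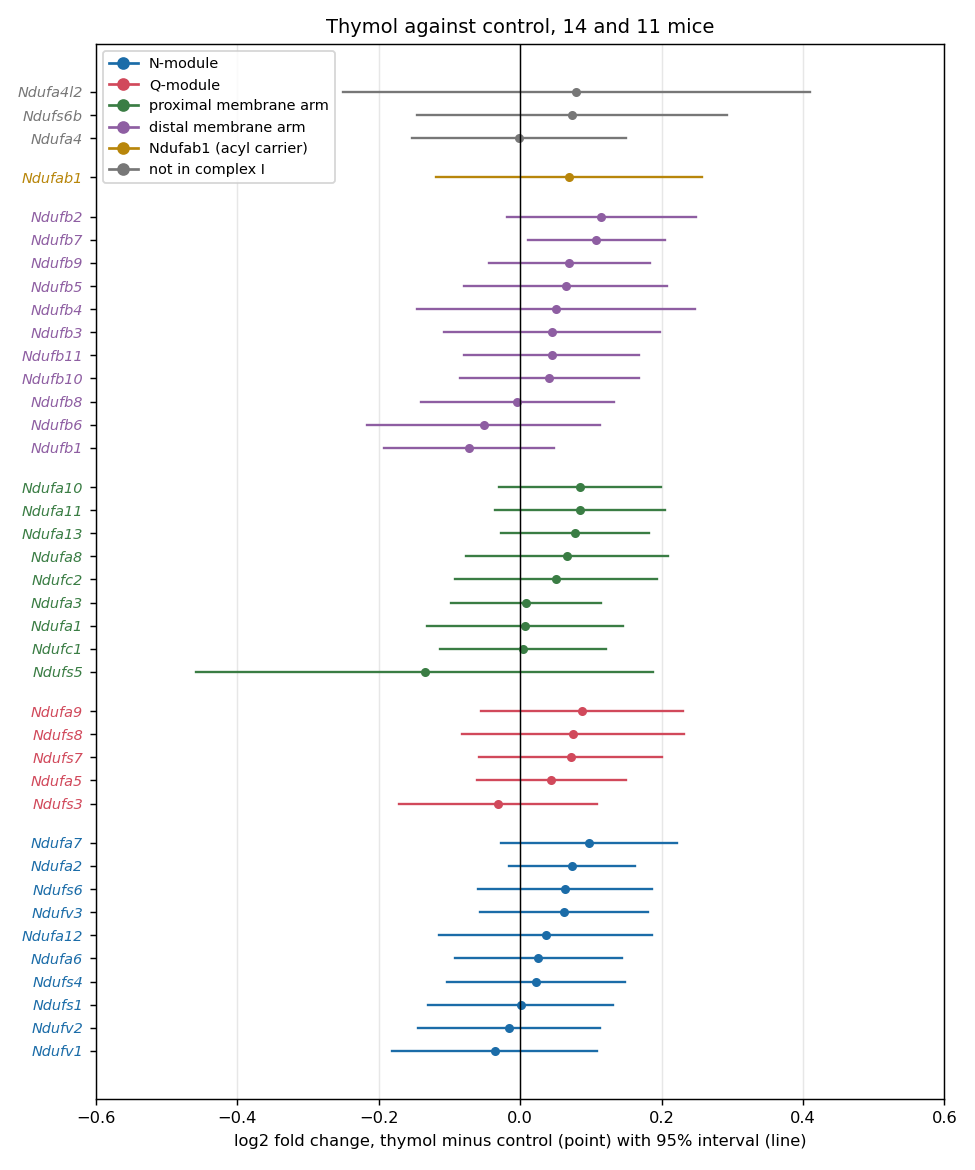
Log2 fold change of 39 of the 40 genes, thymol minus control (points), with its 95% confidence interval from limma (lines), by structural part, for 14 against 11 mice. Only the interval of Ndufb7 lies above 0, from 0.01 to 0.20, and only those of Ndufs5 and Ndufa4l2 reach beyond 0.3 from 0.

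Ndufb7, on chromosome 8 of GRCm38 from 83566671 to 83571626 (plus strand, GENCODE M21), had the smallest p. Its level was 7.63 in the lowest, 7.81 in the median and 8.09 log2 CPM in the highest control mouse, and 7.75, 7.94 and 8.04 in thymol mice. The groups overlapped, with 11 of 14 thymol mice above the control median. The log2 fold change was 0.11 (SE 0.05, p = 0.031, adjusted p = 0.9999, limma). Without Control 1, Thymol 11, Control 19 or Control 31, the count at an unadjusted p under 0.05 was 0. It was 2 without Control 15 or Control 27, and 4 without Control 14.

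Ndufb2, a small distal arm subunit, came next. Its level was 7.21, 7.65 and 7.98 log2 CPM in the lowest, median and highest control mouse and 7.57, 7.72 and 7.96 in thymol mice, with a log2 fold change of 0.12 (SE 0.07, unadjusted p = 0.0887). Both ends of the control range were the mice that stood apart, Control 19 and Control 14. Ndufa2 was at 8.49, 8.64 and 8.86 log2 CPM in control and 8.58, 8.74 and 8.87 in thymol mice (log2 fold change 0.07, SE 0.04, unadjusted p = 0.103).

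The smallest p-values among the 8 genes with an estimate below 0 were those of Ndufb1, Ndufs5 and Ndufb6. Ndufb1, a single-span distal arm subunit, was at 6.84, 7.003 and 7.36 log2 CPM in the lowest, median and highest control mouse and 6.75, 6.99 and 7.17 in thymol mice (log2 fold change -0.07, SE 0.06, unadjusted p = 0.232). Ndufs5 was at 1.82, 3.14 and 3.69 log2 CPM in control and 2.39, 2.90 and 3.26 in thymol mice (log2 fold change -0.13, SE 0.16, unadjusted p = 0.402). Its interval, -0.46 to 0.19, was the widest of any subunit. Ndufb6 was at 5.95, 6.36 and 6.61 log2 CPM in control and 5.78, 6.28 and 6.48 in thymol mice (log2 fold change -0.05, SE 0.08, unadjusted p = 0.527).

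Among the core subunits, Ndufv1 was at 8.09, 8.43 and 8.83 log2 CPM in control and 8.11, 8.45 and 8.82 in thymol mice, nearly the same range. Its log2 fold change was -0.04 with an interval of -0.18 to 0.11. Ndufs8 gave 0.07 (interval -0.08 to 0.23), Ndufs7 0.07 (-0.06 to 0.20), Ndufs1 0.00092 (-0.13 to 0.13), Ndufv2 -0.02 (-0.14 to 0.11) and Ndufs3 -0.03 (-0.17 to 0.11). For Ndufb8 it was -0.0037 (-0.14 to 0.13) and for Ndufab1 0.07 (-0.12 to 0.26).

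By structural part the estimates were above 0 in 8 of 10 N-module genes (median log2 fold change 0.03), 5 of 6 Q-module genes (0.06), 8 of 9 proximal arm genes (0.05) and 8 of 11 distal arm genes (0.04). Of the 3 genes outside complex I, Ndufa4l2 gave 0.08 (interval -0.25 to 0.41), Ndufs6b 0.07 (-0.15 to 0.29) and Ndufa4 -0.0014 (-0.15 to 0.15). The other genes of the chain, from lists chosen by symbol, gave 33 of 44 estimates above 0 for nuclear genes of complexes II to V (median 0.04), and 0 of 44 had an unadjusted p under 0.05. For the mitochondrially encoded pumps and core subunits it was 1 of 5 (median -0.03), with mt-Nd5 above 0 and mt-Nd1, mt-Nd2, mt-Nd4 and mt-Nd6 below, while mt-Nd3 and mt-Nd4l were not analysed here. For the assembly factors it was 12 of 18 (median 0.03). Neither list held a gene with an unadjusted p under 0.05. The smallest were those of Lyrm2, at a log2 fold change of 0.19 (SE 0.10, p = 0.0679, limma), and Tmem126b, at 0.17 (SE 0.09, p = 0.0862, limma).

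Markers of slow fibres and of other cells were read beside these estimates. All 8 slow-fibre markers had an estimate below 0 with a median log2 fold change of -0.26, and 0 of 8 had an unadjusted p under 0.05. Their summed level was 970.3 to 8016 CPM in control and 80.6 to 10491 CPM in thymol mice. On this scale the median was lower with thymol (1989 against 2963 CPM in control) but the mean was higher (3609 against 3088 CPM). With the mean of these markers as a covariate, 32 of the 40 genes were still above 0 with a median of 0.05. Adipocyte markers in the table summed to 286 to 2544 CPM in control and 304 to 2196 CPM in thymol mice, with 4 of 7 estimates above 0. For leukocyte markers it was 3 of 7, for endothelial markers 1 of 6, for Schwann cell markers 0 of 4 and for red blood cell genes 0 of 5, and 1 endothelial and 1 Schwann cell marker had an unadjusted p under 0.05. No marker in the table was at 0 reads in any mouse, Lep and Ptprc were not analysed here, and the part of these cells in the estimates was not tested.

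Across mice, the genes varied together. With group means removed, Pearson's r over the 25 mice had a median of 0.43 over the 780 pairs of the 40 genes, with an interquartile range of 0.25 to 0.59, and 723 pairs were above 0. Over all 38971206 pairs of the table the median was -0.0011 with an interquartile range of -0.16 to 0.16. Of the members' pairs 312 had r above 0.5, which is 40% against 1.22% of all pairs. The pairs were not matched for level, with a median of 7.68 log2 CPM over the members and 4.09 over all genes. The part of level in this contrast was not tested. Without Control 14 and Control 19 the members' median fell to 0.28. With the first number of the mouse label as a block, the members' median over all 25 mice was 0.60. The meaning of that number is not given, and it has 16 levels, of which 9 hold 1 mouse. Control 14 and Control 19 carry the same first number, so the block did not remove the difference between them. All pairs shared the same 25 libraries and their scaling, and the values are a description.

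**Figure D3:**
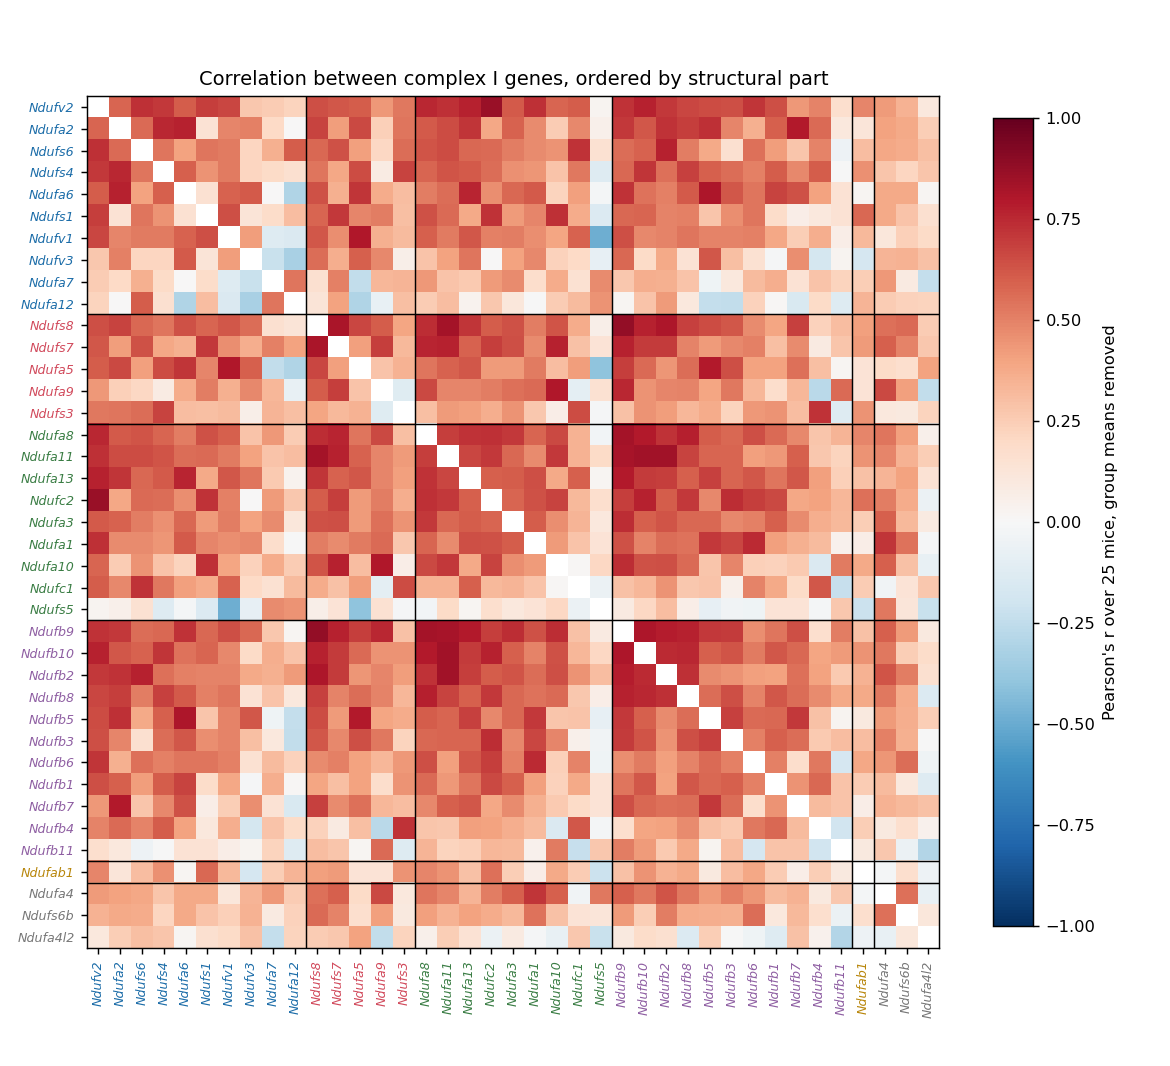
Pearson's r between each pair of 39 of the 40 genes over 25 mice after removal of group means, from blue (negative) to red (positive), with genes ordered by structural part (black lines) and by their mean r within it. Red covers all 4 parts, and pale or blue stripes mark Ndufa12, Ndufs5, Ndufb11 and Ndufa4l2.

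Pooled over the parts, pairs within 1 structural part and pairs across parts had similar medians. The median r was 0.50 over 151 pairs within a part and 0.48 over 479 pairs across parts, and 0.33 and 0.33 without Control 14 and Control 19. Within the N-module it was 0.42, within the Q-module 0.39, within the proximal arm 0.52 and within the distal arm 0.52. Without the same mice these medians were 0.31, 0.17, 0.43 and 0.34, so that the Q-module fell most. N-module with Q-module pairs gave 0.47 (0.31 without them), and proximal with distal arm pairs 0.50 (0.38). Over the 37 subunits alone the median was 0.47 (0.31).

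Ndufb9 had the highest mean r with the other 39 genes, at 0.57, followed by Ndufv2 at 0.56 and Ndufs8 at 0.55, and each had r above 0 with all 39. Without Control 14 and Control 19 these means were 0.43, 0.43 and 0.35. The lowest were Ndufs5 at 0.06, Ndufa4l2 at 0.09 and Ndufa12, an N-module subunit, at 0.14. Ndufs5 and Ndufa4l2 had the fewest reads, with a mean of 56.7 and 47.8 per mouse, whereas Ndufa12 had a mean of 1264 reads and shared 30.96% of its 3′ words with other genes.

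The closest pair was Ndufb9 and Ndufs8, of the distal arm and the Q-module, at r = 0.88 (Spearman's rho 0.85). The genes lie apart, on chromosome 15 (58933756 to 58939488, plus strand) and chromosome 19 (3908863 to 3912774, minus strand) of GRCm38. Ndufb9 was at 8.83, 9.09 and 9.41 log2 CPM in the lowest, median and highest control mouse and 8.92, 9.17 and 9.33 in thymol mice, and Ndufs8 at 6.06, 6.58 and 7.12 in control and 6.47, 6.63 and 6.87 in thymol mice. For both genes Control 19 was lowest and Control 14 highest of the controls, and r was 0.80 without them. The second was Ndufv2 and Ndufc2, of the N-module and the proximal arm, at 0.86 (rho 0.74), and 0.84 without these mice. The most opposed pairs were Ndufs5 with Ndufv1, at -0.48 (rho -0.35), and Ndufs5 with Ndufa5, at -0.40 (rho -0.26). Control 18, with the lowest Ndufs5 and the highest Ndufv1 and Ndufa5 of the control mice, moved both values, which were -0.31 and -0.19 without it.

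**Figure D4:**
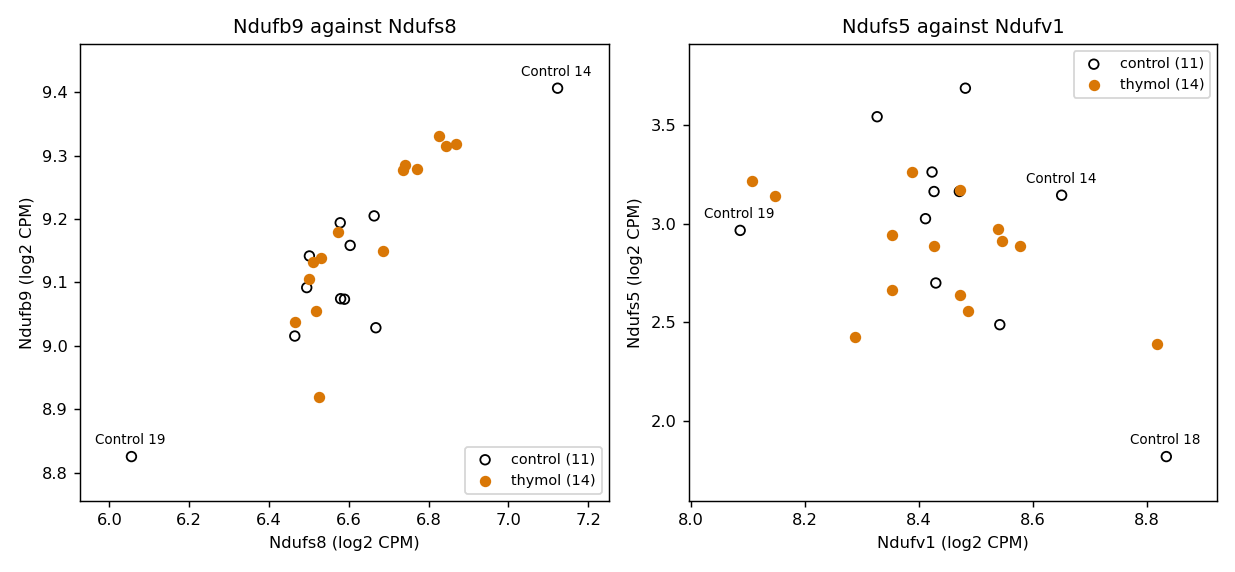
Levels in each mouse (log2 CPM on both axes) of the closest pair, Ndufb9 against Ndufs8 (left), and the most opposed pair, Ndufs5 against Ndufv1 (right), in control (open) and thymol (filled) mice. The left pair rises from Control 19 to Control 14 with r = 0.88, and the right pair falls to Control 18 at the lower right with r = -0.48.

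Co-variation was then tested with 3 subunits as references, of which 1 is not reported here. The others were Ndufv1 for the N-module and Ndufb8 for the distal arm. Each gene was fitted by limma on treatment and the level of the reference, with p-values adjusted over 8828 genes. With Ndufb8, 6 of the other 39 genes rose at an adjusted p under 0.05, against 46 of 8828 genes (0.521%). They were Ndufa8, a proximal arm subunit facing the intermembrane space, with a slope of 0.82 log2 units per log2 unit (SE 0.15, adjusted p = 0.0137), Ndufb10, a distal arm subunit (slope 0.69, SE 0.14, adjusted p = 0.0253), Ndufb9 (0.61, SE 0.13, adjusted p = 0.0253), Ndufb2 (0.71, SE 0.15, adjusted p = 0.0253), Ndufc2 (0.74, SE 0.17, adjusted p = 0.0304) and Ndufs8 (0.80, SE 0.19, adjusted p = 0.0363). All but Ndufs8 are membrane arm subunits. The membrane arm holds many of the 37 subunits, with 9 proximal and 11 distal arm genes, Ndufb8 among the latter. The next genes, just above the threshold, were Ndufs4 and Ndufv2 of the N-module and Ndufb3 of the distal arm (each adjusted p = 0.0568, limma). A preference for the membrane arm was not tested. At an unadjusted p under 0.05, 28 of 39 rose, against 6.07% of all genes, and the slope was above 0 for 38 of 39, Ndufa4l2 being the exception.

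With Ndufv1, 1 of 39 genes rose at an adjusted p under 0.05, against 0.317% of all genes. It was Ndufa5 (slope 0.52, SE 0.11, adjusted p = 0.0263, limma). At an unadjusted p under 0.05 it was 24 of 39, against 5.06%, while Ndufs5 had a slope of -1.07 (SE 0.41, unadjusted p = 0.0143, adjusted p = 0.373, limma). The shares of all genes given with Ndufv1 and with Ndufb8 were not matched for level.

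These counts turned on few mice. Without Control 14, Control 19 or Thymol 28 the count with Ndufb8 was 0, it was 3 without Thymol 24, and 10 without Control 27. With Ndufv1 it was 0 without Control 14, Control 19, Thymol 24 or Thymol 21, 2 without Thymol 20 and 11 without Control 18. Without both Control 14 and Control 19, the counts with Ndufv1 and Ndufb8 were both 0. In the nuclear genes of complexes II to V, 15 of 44 rose with Ndufb8 and 4 of 44 with Ndufv1 at an adjusted p under 0.05. For the 18 assembly factors and the 5 mitochondrially encoded subunits it was 0 with both references.

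Mice were then ordered by the mean of the 40 genes, each taken relative to its own mean over the 25 mice. The lowest were Control 19 at -0.29, Thymol 28 at -0.16 and Thymol 21 at -0.11 log2 units, and the highest Control 14 at 0.26, Thymol 3 at 0.16 and Thymol 24 at 0.14. Control mice ranged from -0.29 to 0.26 with a median of -0.0089, and thymol mice from -0.16 to 0.16 with a median of 0.01. The thymol range lay within that of the controls only because of Control 19 and Control 14, which formed its ends. The other control mice ran from -0.08 (Control 32) to 0.02 (Control 31), inside the thymol range. Control 19 held the lowest value of 18 of the 40 genes and Control 14 the highest of 16. Control 18 was mixed, with the lowest value of 8 genes and the highest of 2.

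**Figure D5:**
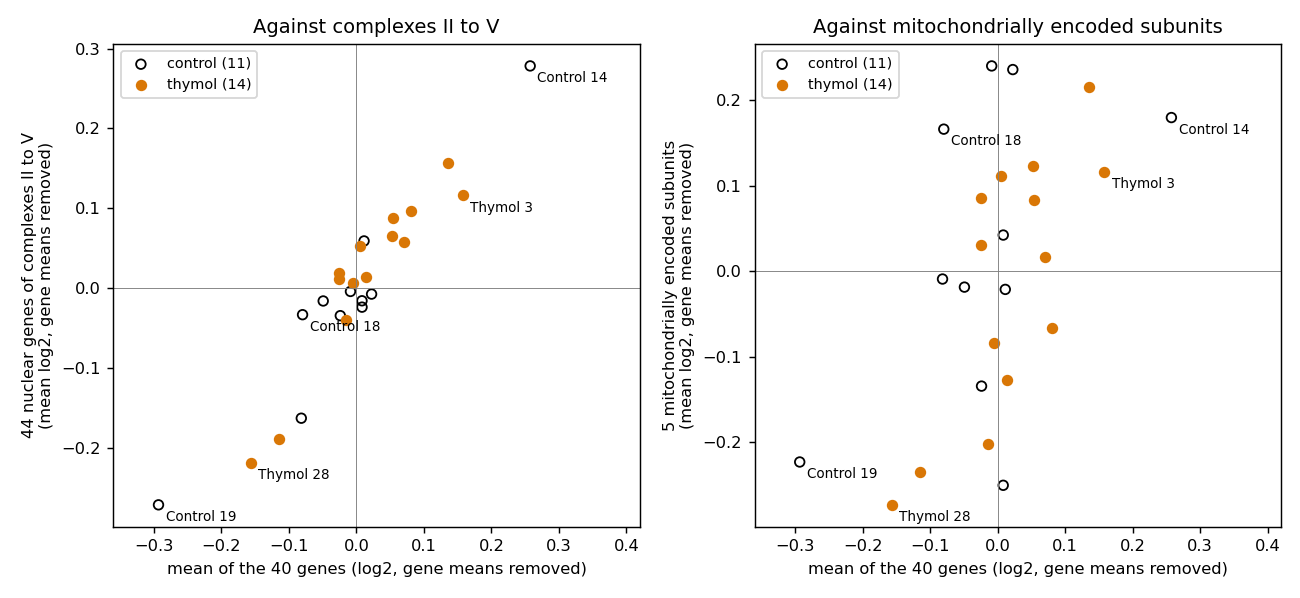
Mean of the 40 genes in each mouse (log2 units relative to the mean over 25 mice) against the mean of 44 nuclear genes of complexes II to V (left) and of 5 mitochondrially encoded complex I subunits (right), in control (open) and thymol (filled) mice. The left panel follows a line from Control 19 to Control 14 with r = 0.95 after removal of group means, and the right panel is wider, with r = 0.60.

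With group means removed, the mean of the 40 genes had r = 0.95 with the mean of the nuclear genes of complexes II to V over the 25 mice, and 0.90 without Control 14 and Control 19. By complex it was 0.83 for complex II (0.73 without these mice), 0.94 for complex III (0.89), 0.79 for complex IV (0.72) and 0.94 for complex V (0.89). It was lower for the mitochondrially encoded subunits, at 0.60 (0.53 without these mice), and for the assembly factors, at 0.65 (0.43). The assembly factors had a median level of 4.30 log2 CPM, against 8.32 for complexes II to V. The mitochondrially encoded list held 5 genes, with mt-Nd6 at 4.43 log2 CPM. The part of level and list size in these values was not tested. In Control 18 the mitochondrially encoded subunits were at 0.17 log2 units while the 40 genes were at -0.08, and in Control 35 they were at 0.24 and -0.0089. The share of reads on mitochondrial genes was lowest in Control 23, at 22.003%, and otherwise between 22.1% and 33.9%. It was 22.1% in Control 19, 28.5% in Control 14 and 33.9% in Control 18.

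For other measures taken in the same libraries, r with the mean of the 40 genes was -0.46 for adipocyte markers (-0.38 without Control 14 and Control 19) and -0.40 for leukocyte markers (-0.49). It was 0.05 for slow-fibre markers (-0.08), 0.37 for endothelial markers (0.04) and -0.28 for Schwann cell markers (0.02). For skeletal muscle markers it was 0.27 (0.48), for red blood cell genes 0.14 (0.25), for log2 reads -0.21 (-0.38) and for the share of mitochondrial reads 0.44 (0.33). Control 19 had the highest summed adipocyte level of the 25 mice, 2544 CPM. With the adipocyte mean as a covariate the median pairwise r of the members was 0.39 and the count rising with Ndufb8 was 1, and with the slow-fibre mean they were 0.45 and 4.

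The 5 genes outside the list whose pattern over the 25 mice was most like the mean of the 40 genes were Cox5a (r = 0.93), a complex IV subunit, Uqcrq (0.92), a complex III subunit, Cox7a1 (0.91), the muscle isoform of a complex IV subunit, Sdhb (0.88), the iron-sulfur subunit of complex II, and Slc25a4 (0.88), the muscle ADP/ATP carrier. Without Control 14 and Control 19 the values were 0.87, 0.82, 0.82, 0.77 and 0.78. Cox7a1 was at -0.98 log2 units relative to its mean in Control 19 and at 0.49 in Control 14.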

How the data were processed

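Total RNA of frozen gastrocnemius was made into QuantSeq 3′ FWD libraries, per the labels. The authors mapped reads with STAR 2.5.3 to GRCm38, counted them per gene with HTSeq 0.6.1, kept genes with 30 reads in at least 6 samples, and deposited TMM-scaled log2 CPM values. Reads recovered from the steps of these log2 values were whole for 100% of values (tolerance 0.05 reads) and cover counting error only.

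Treatment groups came from the labels, and p-values test a group difference or a slope against the spread between mice. The main test was limma 3.58.1 (R 4.3.3, variance trend, two-sided, Benjamini-Hochberg over all genes, threshold 0.05), checked on simulated data. The simulated treatment changes were of 1 log2 unit, while the largest estimate of a member was 0.13 in size. Detection of changes that small was not checked. The authors tested counts with edgeR, which was not run on log2 values. Named genes were the 3 smallest p in each direction, core subunits, the extremes of level, SD and correlation, Ndufb8, Ndufab1, the 3 genes outside complex I and the 5 most alike non-members; others were chosen after their values were seen. Alternatives were other scalings, voom, a filter, moderation settings, sample weights, covariates, a block and each mouse left out. Promoters are from RefSeq (GRCm38.p6), positions and shared words from GENCODE M21. The members and lists were chosen with earlier results of these data known. Results for 1 member by name are not reported here.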

Additional observations from a re-analysis of the deposited data

How the results depend on the processing

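No paired analysis was possible because the last number of the label, which names the mouse, never occurs in both groups. The first number, of unknown meaning, occurs in both groups for 7 of its values and was fitted as the label block. Control 14 and Control 19 share a first number, so results with the label block still hold the difference between them. The count of members called with thymol was 0 under every alternative run. The count with an estimate above 0 was 30 to 34 under the other settings and 27 to 35 with each mouse left out, and the median log2 fold change 0.04 to 0.07 and 0.02 to 0.08, lowest without Control 19. The count at an unadjusted p under 0.05 was 0 without the variance trend and 0 to 4 with each mouse left out. The count rising with Ndufv1 was 0 with quantile normalization, no trend, the label block, the slow-fibre or the adipocyte covariate, and without Control 14 and Control 19, 2 with library number, and 0 to 11 with each mouse left out. With Ndufb8 it was 0 with quantile normalization, no trend, and without Control 14 and Control 19, 1 with the label block or the adipocyte covariate, 10 by median centring, centring on nuclear genes or voom, and 0 to 10 with each mouse left out. The median pairwise r was 0.38 with quantile normalization, 0.47 with median centring or centring on nuclear genes, 0.60 with the label block, 0.39 with the adipocyte covariate, 0.36 as Spearman's rho, 0.28 without Control 14 and Control 19, 0.47 without the 3 genes outside complex I, and 0.35 to 0.49 with each mouse left out. Leaving out both mice or the 3 genes was chosen after seeing the data, and the cause was not tested.

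Estimates near 0 changed sign, none with an adjusted p under 0.05 (limma). Ndufa12 was at -0.00619 with sample weights and -0.00195 with the block. Ndufa4 was at 0.00894 with quantile normalization, 0.00151 with median centring, 0.00328 with centring on nuclear genes, 0.00278 with sample weights, 0.00634 with depth and 0.0437 without both mice. Ndufb8 was at 0.000914 with centring on nuclear genes, 0.0217 with the block, 0.0146 with depth and 0.00443 with the slow-fibre covariate. Ndufs1 was at -0.00191 by voom, -0.00478 with sample weights and -0.0181 without both mice, and with the block Ndufv1 at 0.0363 and Ndufv2 at 0.0303. With each mouse left out the ranges were -0.0107 to 0.0602 for Ndufa12, -0.0441 to 0.0483 for Ndufa4, -0.01399 to 0.142 for Ndufa4l2, -0.0378 to 0.0317 for Ndufb8, -0.0342 to 0.0264 for Ndufs1, -0.0732 to 0.00158 for Ndufv1 and -0.0547 to 0.00829 for Ndufv2. Ndufa4l2 and Ndufs5, at 47.8 and 56.7 mean reads, had counting SDs of 0.21 and 0.19 log2 units within total SDs of 0.41 and 0.40.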

Other observations

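The genes outside the list that ran most against the mean of the 40 genes over the 25 mice, with group means removed, were Htra1, a secreted serine protease (r = -0.82, and -0.70 without Control 14 and Control 19), and Il1r1, the interleukin-1 receptor (-0.76 and -0.54), followed by Sort1 (-0.74 and -0.64), Abca1 (-0.74 and -0.49) and Purb (-0.73 and -0.52). They were chosen after their values were seen. Htra1 was at 1.17 log2 units relative to its mean in Control 19 and at -0.76 in Control 14.

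Further genes of energy metabolism stood close to the mean of the 40 genes. Ckmt2, the mitochondrial creatine kinase of muscle, had r = 0.84 (0.70 without both mice) and Mpc2, part of the mitochondrial pyruvate carrier, 0.83 (0.60). Ckmt2 was at -0.78 log2 units in Control 19 and 0.68 in Control 14.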
